A study of Homo sapiens with 2 samples.

Results

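Nonsense-mediated decay (NMD) is the surveillance pathway that degrades messenger RNAs on which a ribosome stops too early. The genes described here are 7 of its core factors, UPF1, UPF2, UPF3A, UPF3B, SMG1, SMG5 and SMG6, taken by symbol from a table of 21115 genes in which each had 1 row. They were measured in HCT116, an established human colorectal carcinoma cell line, after 8 h with 1 µM CB-5083, an inhibitor of the ATPase p97 (gene VCP), or with its solvent DMSO. No other agent or genetic change is named in the labels for either group. With 1 library in each group there is no replicate check and no p-value, and every interval covers counting error only.

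None of the 7 factors reached a 2-fold difference between the libraries, which 12.1% of all genes tested did. All 7 lay within 1.5-fold, as did 70.1% of all genes tested. Which of the factors differed beyond counting error depended on how the libraries were scaled. Under the main scaling, the trimmed mean of M-values (TMM), UPF3B, SMG1 and SMG5 were 1.28-fold, 1.27-fold and 1.19-fold higher with CB-5083, and the intervals of UPF2, UPF3A, UPF1 and SMG6 included no difference. With library totals alone as the scale, the intervals of UPF3B, SMG1 and SMG5 included no difference, and UPF2, UPF3A, UPF1 and SMG6 had folds of 0.825, 0.783, 0.747 and 0.703, with intervals below 1. A list of 23 transcripts described as NMD-sensitive was drawn up with earlier results of these data known. Of these, 14 were at least 2-fold higher with CB-5083, against 7.22% of all genes tested. Among the 14, 4 were under 5 CPM (counts per 1000000) with DMSO and were tested only through their CB-5083 level. Of the 19 at 5 CPM or more in the DMSO library, 10 were at least 2-fold higher, against 6.18% of genes. Many of the called genes are also known targets of stress transcription factors, and the part of RNA decay was not tested.

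As background, UPF1 is an RNA helicase that gathers at a terminating ribosome. UPF2 and the paralogs UPF3A and UPF3B link it to the exon junction complex, a protein mark left upstream of splice junctions, and the kinase SMG1 then phosphorylates it. Phosphorylated UPF1 attracts SMG6, an endonuclease that cuts the transcript near the stop codon, and SMG5, which brings in deadenylation and decapping.

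The promoters of 4 of the factors are shown because HSPA5, the main chaperone gene of the endoplasmic reticulum (ER), was far higher with CB-5083 and carries an ER stress element in its promoter, while the factors were not called. The sequences are from RefSeq (GRCh38.p14), the 250 bases upstream of the start listed at the top of the table for each gene. Capitals mark CCAAT and CCACG on either strand, which are the outer parts of the ER stress element ERSE (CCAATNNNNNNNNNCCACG). HSPA5 is printed for contrast, and so is RUVBL2, an ATPase of the machinery that assembles SMG1-type kinases. For these last genes the window that holds the element is shown.
UPF1 (chr19:18831709-18831958, plus strand): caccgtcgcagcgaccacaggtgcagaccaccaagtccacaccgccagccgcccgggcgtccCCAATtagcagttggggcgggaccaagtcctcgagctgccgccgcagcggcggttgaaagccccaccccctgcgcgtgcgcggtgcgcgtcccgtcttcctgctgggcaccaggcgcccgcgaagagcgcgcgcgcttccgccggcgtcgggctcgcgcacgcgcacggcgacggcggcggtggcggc
UPF3A (chr13:114281351-114281600, plus strand): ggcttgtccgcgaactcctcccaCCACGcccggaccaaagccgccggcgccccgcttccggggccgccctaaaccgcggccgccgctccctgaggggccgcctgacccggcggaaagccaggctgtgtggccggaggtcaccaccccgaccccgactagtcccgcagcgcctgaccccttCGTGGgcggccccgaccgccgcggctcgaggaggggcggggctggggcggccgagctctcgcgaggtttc
UPF3B (chrX:119852964-119853213, minus strand): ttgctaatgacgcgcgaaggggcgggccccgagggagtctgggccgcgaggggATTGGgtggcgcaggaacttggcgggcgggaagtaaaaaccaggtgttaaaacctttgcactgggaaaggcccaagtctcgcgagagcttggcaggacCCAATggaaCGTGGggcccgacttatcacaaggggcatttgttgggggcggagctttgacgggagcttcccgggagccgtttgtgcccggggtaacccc
SMG1 (chr16:18926409-18926658, minus strand): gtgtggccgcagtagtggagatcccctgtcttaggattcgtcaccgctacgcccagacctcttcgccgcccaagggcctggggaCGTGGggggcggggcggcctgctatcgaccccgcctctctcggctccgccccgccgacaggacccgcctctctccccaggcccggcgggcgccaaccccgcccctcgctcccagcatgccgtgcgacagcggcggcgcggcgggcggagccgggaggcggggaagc
RUVBL2 (chr19:48993198-48993447, plus strand): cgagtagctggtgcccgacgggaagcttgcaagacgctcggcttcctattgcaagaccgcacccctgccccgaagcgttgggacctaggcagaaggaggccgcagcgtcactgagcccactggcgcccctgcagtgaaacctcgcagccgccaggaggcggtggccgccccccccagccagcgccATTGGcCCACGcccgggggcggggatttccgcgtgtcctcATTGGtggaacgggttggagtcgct
HSPA5 (chr9:125241344-125241593, minus strand): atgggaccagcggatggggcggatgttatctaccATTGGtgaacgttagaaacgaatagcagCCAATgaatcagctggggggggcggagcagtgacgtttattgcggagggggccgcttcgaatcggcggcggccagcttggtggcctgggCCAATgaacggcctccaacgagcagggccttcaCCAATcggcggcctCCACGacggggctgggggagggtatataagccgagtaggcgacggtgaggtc

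All 7 factors had promoter windows, 14 in all. None of these windows held ERSE, which was in 0.074% of 35116 windows, or ERSE-II (ATTGG and CCACG with 1 base between them), which was in 0.0513%. The other stress motifs searched on both strands were UPRE (TGACGTGG, in 0.612% of windows), an ATF4 composite site (TGATGNAAT, 0.888%), the cAMP response element (TGACGTCA, 1.65%) and a heat shock element (GAANNTTCNNGAA, 0.441%), and 0 of the 14 windows held any of them. UPRE shares TGACGT with the cAMP response element, and its reverse strand shares CCACG with both ERSE forms. The parts alone were common. CCAAT was in 5 of the 14 windows, from 4 factors, beside 32.0% of all windows, and CCACG in 6 of the 14, from 6 factors, beside 33.5%. A missing match says only that these letters are not in these windows. In HSPA5 the parts stand at ERSE spacing, and its level was 1282 CPM under DMSO against 21303 CPM under CB-5083. In RUVBL2 they form ERSE-II, and its level was 11.2 against 11.998 CPM, and it was not called. On the list of NMD-sensitive transcripts, 14 of 23 were at least 2-fold higher, beside 7.22% of all genes tested. Of these 14, 4 passed the filter on low values only through their CB-5083 level. With a filter on the DMSO library, 10 of 19 were higher, beside 6.18%. Only 18 of the 23 genes had windows, and the rest were not searched. Of these 18, 0 held ERSE, ERSE-II, UPRE or the ATF4 composite site. RPL3 held the cAMP response element and GAS5 the heat shock element. A link between these motifs and the levels was not tested.

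Depth was 29273755 estimated counts for DMSO and 31997747 for CB-5083, of which the factors had between 350.0 and 8300 each. Of the epithelial markers EPCAM, CDH1, KRT8, KRT18, KRT19, VIL1 and CDX2, the first 5 were at 47.2 CPM or more in both libraries. Of these 5, 1 was at least 2-fold higher with CB-5083, beside 7.22% of all genes tested. It was CDH1, at 66.7 against 243 CPM (3.65-fold, 3.48 to 3.83). CDX2 was at 3.76 and 2.92 CPM, and VIL1 was at 0.030 CPM with DMSO and listed at 0 with CB-5083. The 10 markers of leucocytes, fibroblasts and endothelium that the table held were at 3.48 CPM or less, with CD3E, PTPRC, COL1A2 and CDH5 listed at 0 in both. A lower level in a bulk sample cannot be told apart from fewer cells that express the gene.

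A gene was called higher or lower when its log2 ratio, computed from TMM-scaled CPM after adding 1 CPM to each library, was at least 1 in size and it reached 5 CPM in at least 1 library. All 7 factors passed this filter on low values. None was called higher, against 7.22% of the 9543 genes that passed, and none lower, against 4.91%. With so few members, a count of 0 is near what those shares give. The median log2 ratio of the 7 factors was 0.06, beside 0.09 for all genes that passed. All 7 lay inside the middle 50% of genes, which ran from -0.27 to 0.44. SMG6 had the lowest ratio, above 32.0% of the genes, and UPF3B the highest, above 69.2%.

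UPF1, on chromosome 19 from 18942744 to 18979039 on the plus strand (hg19), had 27.3 CPM in the DMSO library and 25.9 CPM in the CB-5083 library. Its fold was 0.947 (95% counting interval 0.858 to 1.05), which included no difference under TMM. With library totals it was 0.747 (0.677 to 0.825), so whether the helicase at the centre of the pathway was lower turned on the scaling. UPF2, on chromosome 10 from 11962021 to 12085169 on the minus strand, was at 95.5 against 99.8 CPM, a fold of 1.05 (0.994 to 1.10). Its interval also included 1, and with library totals it did not (0.825, 0.784 to 0.868). Rows of unnamed cDNAs overlap the spans of UPF2 (6.65 and 5.52 CPM), SMG1 (2.04 and 1.65 CPM) and SMG6 (0.262 CPM and 0), and reads may be shared with them.

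The UPF3 paralogs differed from each other. UPF3A, on chromosome 13 from 115047059 to 115071291 on the plus strand, was at 31.3 against 31.0 CPM, a fold of 0.992 (0.905 to 1.09). UPF3B, on chromosome X from 118967989 to 118986991 on the minus strand, was at 41.7 against 53.3 CPM, a fold of 1.28 (1.19 to 1.38). Under TMM, UPF3B was higher with CB-5083 beyond counting error and UPF3A was not. With library totals the fold was 1.01 (0.936 to 1.09) for UPF3B and 0.783 (0.714 to 0.857) for UPF3A, so there UPF3A was lower beyond counting error while the interval of UPF3B included 1. The ratio of the paralogs inside a library does not depend on how libraries are scaled. UPF3A stood to UPF3B as 0.749 (0.691 to 0.813) in the DMSO library and as 0.582 (0.535 to 0.633) in the CB-5083 library, and these intervals do not overlap.

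SMG1, the kinase of UPF1, lies on chromosome 16 from 18816175 to 18937726 on the minus strand. It was at 231 against 292 CPM, a fold of 1.27 (1.23 to 1.31), and with library totals the interval was 0.969 to 1.03. Its transcript is long, with 16115 bases and 63 exons in GENCODE release 29, and took 49.3% of the summed CPM of the 7 factors with DMSO and 53.4% with CB-5083. SMG1 also has partial copies on the same chromosome, so reads may have been split between rows. The 7 rows described as SMG1 copies summed to 95.6 and 113 CPM, or 29.3% and 27.9% of SMG1 and its copies together. SMG1 and these copies counted as 1 gene gave a fold of 1.24 and a log2 ratio of 0.31, against 0.34 for the SMG1 row.

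The factors that act on phosphorylated UPF1 differed in their ratio to each other. SMG5, on chromosome 1 from 156219015 to 156252620 on the minus strand, was at 27.3 against 32.5 CPM, a fold of 1.19 (1.08 to 1.31). SMG6, on chromosome 17 from 1963133 to 2207069 on the minus strand, was at 13.8 against 12.3 CPM, a fold of 0.891 (0.774 to 1.03). Under TMM the interval of the endonuclease SMG6 included 1 and that of the adaptor SMG5 did not. With library totals this turned, with 0.703 (0.610 to 0.811) for SMG6 and 0.939 (0.856 to 1.03) for SMG5. Inside a library, SMG6 stood to SMG5 as 0.506 (0.451 to 0.567) with DMSO and as 0.379 (0.334 to 0.429) with CB-5083, and the intervals do not overlap. UPF2 stood to UPF1 as 3.50 (3.24 to 3.77) and 3.86 (3.56 to 4.19), with overlapping intervals.

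**Figure D1:**
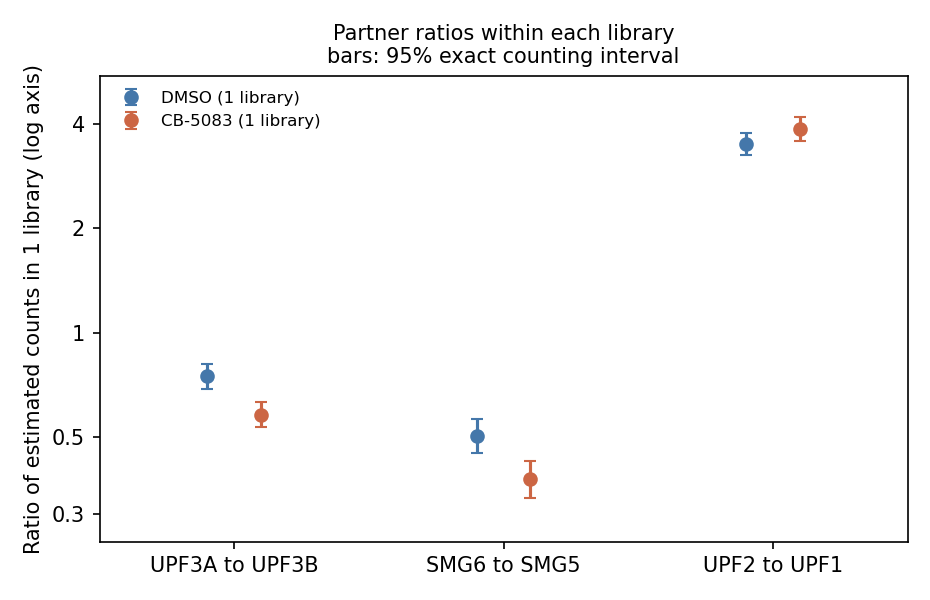
Ratio of the estimated counts of 2 factors inside each library, on a log axis, for the DMSO library (blue) and the CB-5083 library (orange), with 95% exact counting intervals. The ratios of UPF3A to UPF3B and of SMG6 to SMG5 are lower in the CB-5083 library, and the intervals of UPF2 to UPF1 overlap.

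Levels of different genes were set side by side per kb of transcript, with the mean length of the GENCODE transcripts that carry the table's RefSeq accessions. SMG6 has 2 such accessions but only 1 transcript with a length, of 5960 bases, so its level per kb rests on that transcript. With DMSO, UPF2 (18.1 CPM per kb) and UPF3B (17.7) led, and their counting intervals overlapped. SMG1 (14.3) and UPF3A (13.5) followed, again with overlapping intervals. SMG5 (5.99), UPF1 (5.11) and SMG6 (2.32) were lower, each apart from the next. With CB-5083 the order differed at its top. UPF3B stood at 22.6 CPM per kb, above UPF2 at 18.9 and SMG1 at 18.1, which overlapped each other. UPF3A (13.4), SMG5 (7.13), UPF1 (4.84) and SMG6 (2.07) kept their places.

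**Figure D2:**
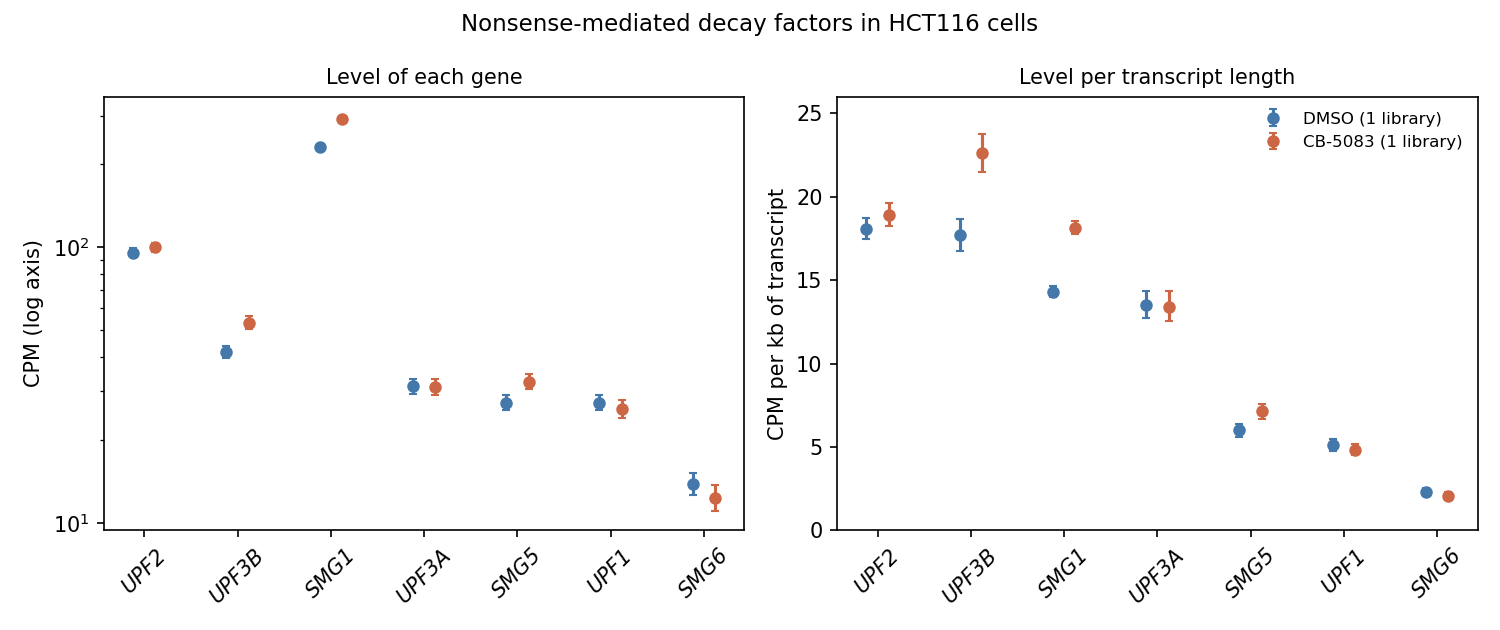
Level of the 7 factors in the DMSO library (blue) and the CB-5083 library (orange), in CPM on a log axis (left) and in CPM per kb of transcript (right), with 95% Poisson counting intervals. UPF3B, SMG1 and SMG5 are higher in the CB-5083 library with the TMM scaling plotted, none of them is beyond counting error with library totals, and SMG6 is lowest per kb in both.

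The sign of a small ratio depended on the scaling between libraries, which moved the median of all genes from 0.09 with TMM to -0.25 with library totals. With library totals the log2 ratios were 0.01 for UPF3B, -0.0007 for SMG1, -0.09 for SMG5, -0.27 for UPF2, -0.34 for UPF3A, -0.41 for UPF1 and -0.47 for SMG6. UPF3B kept a ratio above 0 and UPF1 and SMG6 a ratio below 0 under TMM, library totals, upper quartile and median-of-ratios scaling. In the authors' deposited table, the log2 ratios ran from -0.26 for SMG6 to 0.26 for UPF3B. A scaling shifts all genes by nearly the same amount, so a position relative to the median gene hardly depends on it. Under TMM, UPF3B lay 0.25 above that median on the log2 scale, SMG1 0.25 and SMG5 0.15. UPF2 lay at -0.03, UPF3A at -0.11, UPF1 at -0.17 and SMG6 at -0.25.

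**Figure D3:**
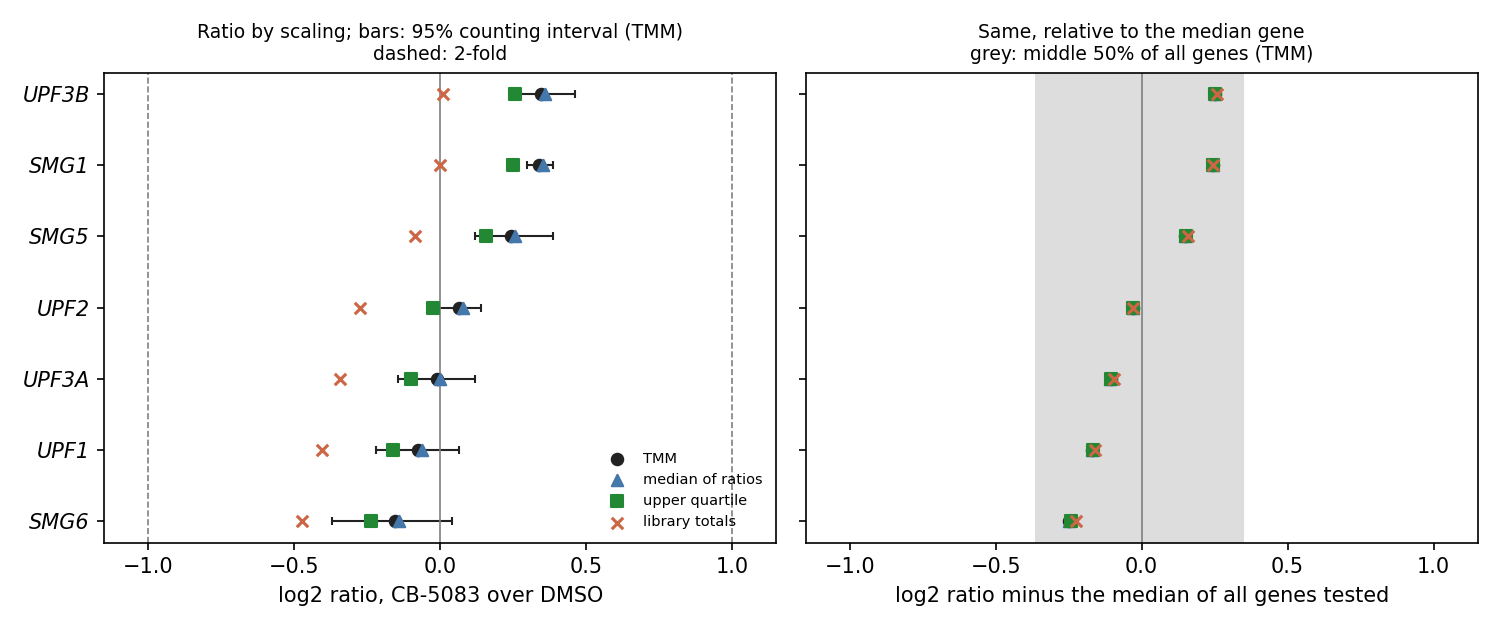
Log2 ratio of CB-5083 over DMSO for the 7 factors under 4 scalings (left, with 95% counting intervals around the fold under TMM and dashed lines at 2-fold) and the same minus the median of all genes (right, with the middle 50% of genes in grey). Library totals shift every factor to the left, and relative to the median gene the scalings nearly coincide by construction, since the median shifts with them.

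The other genes of the pathway had a wider range of log2 ratios, from -0.45 to 0.70, than the factors, from -0.15 to 0.35. These are 14 genes against 7, and a range can widen with the number of genes alone. Of 16 other NMD factors 14 passed the filter, and none of the 14 was called. Their median log2 ratio was 0.15 (-0.17 with library totals), with 7 of 14 above the median of all genes. ETF1, the release factor that recognises stop codons, was at 556 against 907 CPM (1.63-fold, 1.60 to 1.66). GNL2, a nucleolar GTPase, was at 174 against 271 CPM (1.56-fold, 1.51 to 1.61). CTIF, a partner of the cap-binding complex, was at 2.24 against 4.01 CPM, under the filter. SMG8, a regulatory partner of SMG1, had the lowest ratio of this list, at 60.9 against 44.4 CPM (1.37-fold lower, 1.28 to 1.47), while SMG9, the other such partner, was at 10.7 against 10.9 CPM.

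All 10 genes of the exon junction complex and its partners passed the filter and none was called, with a median of 0.22 (-0.12 with library totals). MAGOHB and MAGOH, near-identical core subunits whose reads could be split between them, were at 51.5 against 77.7 CPM and 66.6 against 99.8 CPM, and SAP18 was at 151 against 193 CPM. Of 18 mRNA decay enzymes none was called, with a median of 0.18 (-0.16 with library totals). CNOT1, the scaffold of the main deadenylase, was at 334 against 594 CPM (1.78-fold, 1.73 to 1.82), and DIS3, a catalytic exosome subunit, at 199 against 339 CPM (1.70-fold, 1.65 to 1.76). The exonuclease XRN1 was at 49.2 against 74.5 CPM. The lowest of these enzymes was DCP1B, a cofactor of decapping, at 10.98 against 7.21 CPM (1.52-fold lower, 1.28 to 1.82). PAN2, DIS3L and DCP2 were 1.29-fold, 1.28-fold and 1.21-fold lower, each beyond counting error.

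Genes that handle stalled ribosomes, a neighbouring surveillance route, had a median of 0.48 (0.15 with library totals). Of 12 that passed the filter, 1 was higher (8.33%, beside 7.22% of all genes) and none lower. All 12 lay above the median of all genes. ZNF598, under the filter at 2.88 against 2.32 CPM, had a log2 ratio of -0.22, below that median. The called gene was GTPBP2, a GTPase for stalled ribosomes, at 13.2 against 76.6 CPM (5.79-fold, 5.22 to 6.43). Its relative GTPBP1 was at 8.49 against 16.96 CPM (log2 ratio 0.92), short of the threshold, and LTN1, the ubiquitin ligase of stalled nascent chains, at 29.4 against 50.8 CPM (1.73-fold, 1.59 to 1.87).

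Transcripts described as NMD-sensitive had larger ratios. Of 23 on this list, 14 were higher, 0 lower and 9 uncalled. UPP1, GADD45B, MAP3K14 and ERN1 passed the filter only through the CB-5083 library, where they are high, and so had to differ. Without these 4, with a filter on the DMSO library chosen after seeing the data, 10 of 19 were higher, beside 6.18% of all genes, and 0 lower, beside 5.07%. Over all 23, these 4 included, the median log2 ratio was 1.38, and 22 of 23 lay above the median of all genes. Library totals left 11 of the whole list higher, at a median of 0.98 over those that passed the filter there. The called genes are ATF4, ATF3, DDIT3, ASNS, GADD45A, GADD45B, UPP1, MAP3K14, ERN1, SLC7A11, CARS, GAS5, ZFAS1 and SNHG1. Many of them are also known targets of stress transcription factors, and the part of transcription and of RNA decay in their levels was not tested. The list was drawn up with earlier results of these data known and is not independent evidence of a direction.

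The non-coding hosts of small nucleolar RNAs, whose spliced transcripts are known NMD substrates, are also on this list. GAS5 had 272 CPM in the DMSO library against 899 CPM after CB-5083 (3.31-fold, 3.23 to 3.39). ZFAS1 was at 109 against 485 CPM (4.46-fold, 4.30 to 4.63), although it is antisense to ZNFX1 and the sources used here give no strand setting for the counting. SNHG1 was at 390 against 1015 CPM (2.60-fold, 2.55 to 2.66). SNHG12 (88.5 against 144 CPM) and SNHG15 (21.7 against 39.8 CPM) had ratios of 0.69 and 0.85 and were not called. So 3 of these 5 hosts were at least 2-fold higher, beside 7.22% of all genes. The other 2 had higher values with CB-5083 as well, short of 2-fold. The hosts come from a list drawn up with earlier results of these data known.

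Among the coding members, UPP1, GADD45B, MAP3K14 and ERN1 passed the filter only through the CB-5083 library and so had to differ. The other called coding genes are named above without levels. UPP1, uridine phosphorylase, was at 1.94 against 47.6 CPM (24.5-fold, 19.1 to 32.0). GADD45B, a stress-induced growth arrest gene, was at 4.58 against 35.9 CPM (7.83-fold, 6.60 to 9.35). MAP3K14, the kinase NIK, was at 2.40 against 6.83 CPM (2.85-fold, 2.18 to 3.75), and its call was lost with library totals (log2 ratio 0.93), as was that of ATF4 (0.73). ERN1 fell under the filter there, with a log2 ratio of 1.39. Splicing factor genes of the list, known for NMD-sensitive alternative isoforms, stayed inside 2-fold. TRA2B was at 372 against 595 CPM, HNRNPL at 344 against 435 CPM and SRSF3 at 662 against 806 CPM. SRSF2, a splicing factor of the same family, was the lowest of the list, at 602 against 453 CPM. The table gives 1 value per gene, so productive and NMD-sensitive isoforms of these genes were not separated. RPL3 (633 against 1106 CPM) and RPL12 (553 against 969 CPM) have many pseudogene copies, which leaves their values uncertain.

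**Figure D4:**
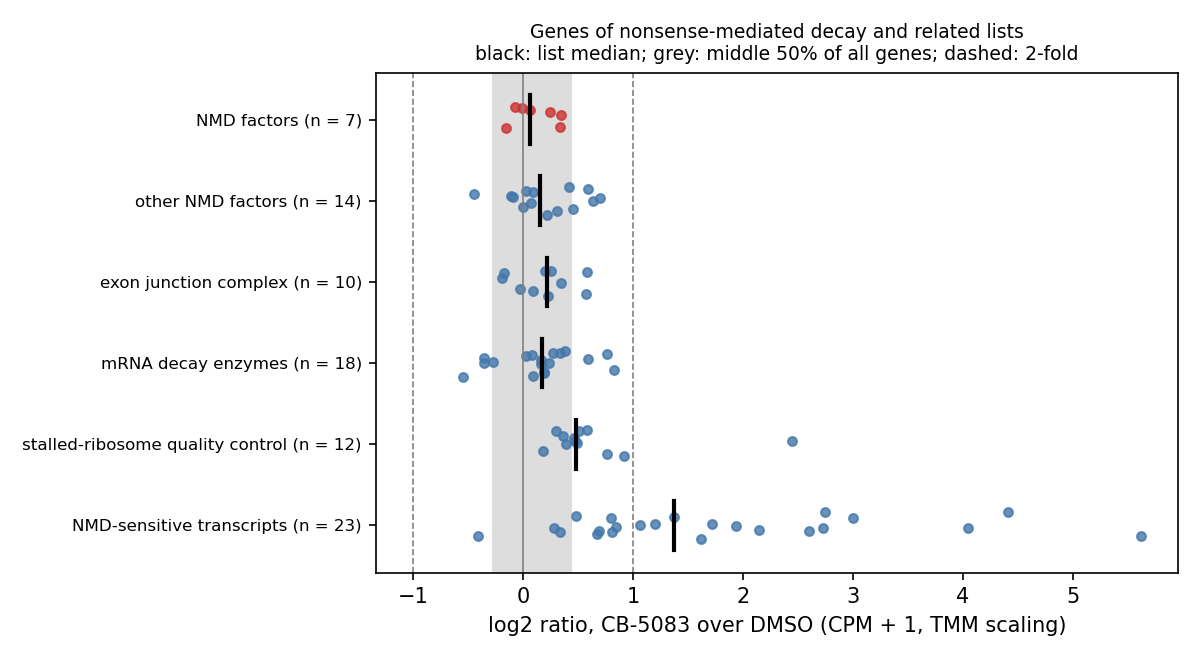
Log2 ratio of CB-5083 over DMSO for each gene that passed the filter, by list, with the list median (black bar), the middle 50% of all genes (grey) and 2-fold (dashed). The 7 NMD factors (red) sit inside the grey band with a median of 0.06, and NMD-sensitive transcripts reach 5.62 with a median of 1.38. That last median includes 4 genes that passed the filter only through the CB-5083 library, where they are high. The NMD-sensitive list was drawn up with earlier results of these data known.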

How the data were processed

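The data were 2 libraries of HCT116 cells, 1 treated with DMSO and 1 with 1 µM CB-5083 for 8 h. Library preparation was stranded and selected mRNA, per the labels' protocols. RSEM 1.2.0 and hg19 come from the submitters' processing notes, and an aligner is not stated there. The deposited signal of each gene was scaled by the authors so that the 75th percentile of all genes lies near 1000 in each library, as the values themselves show. The deposited table also has the authors' log2 ratio, which equals log2 of the CB-5083 over the DMSO signal. Dividing by the common step of the low values (1.08 with DMSO, 1.18 with CB-5083) gave estimated counts, whole within 0.02 for 55.0% and 55.7% of values. They are therefore not whole reads, and no count model of a difference between the groups was run. The binomial and Poisson intervals use these counts rounded to whole numbers. They leave out any error in sharing reads between genes.

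CPM used TMM factors of 1.13 (DMSO) and 0.888 (CB-5083), with trims of 30% and 5%. The design had foreseen scaled values. Of 21116 rows, 1 without a value was left out. A fold uses no pseudocount and has a 95% exact (Clopper-Pearson) interval from both counts. Log2 ratios add 1 CPM, which understates the difference of low genes. 3 counts, the limit that a value of 0 allows, are 0.091 CPM in the DMSO library and 0.106 CPM in the other. Reads carry no molecular identifiers, so intervals cover counting error only. Starts are counted from 1. ZFAS1 was matched through its synonym ZNFX1-AS1. Some genes of the lists are not reported here. The members and the gene lists were chosen with earlier results of these data known. Named were all members and, of each list, genes past 2-fold and up to 3 with the largest ratio in size. Further names in the text (SMG8, SMG9, the SMG1 copies, SNHG12, SNHG15, TRA2B, HNRNPL, SRSF2, SRSF3, DCP1B, PAN2, DIS3L, DCP2, ZNF598, RPL3, RPL12, HSPA5 and RUVBL2) were chosen after their values were seen. Scripts were tested on simulated data. Tools were scipy 1.17.1, numpy 2.4.6, matplotlib 3.10.9 and pandas 2.3.3 under Python 3.11.15.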

Additional observations from a re-analysis of the deposited data

How the results depend on the processing

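No NMD factor was called under any alternative run: 3 scalings, 2 pseudocounts, the authors' deposited log2 ratio, a 1.5-fold threshold, no filter, a filter of 10 CPM and, added after seeing the data, a filter of 5 CPM in the DMSO library. No replicate could be left out, since each group is 1 library. No paired analysis was possible because each group has 1 library and no test was run. With library totals the median log2 ratio was -0.27 for the NMD factors, -0.17 for other NMD factors, -0.12 for the exon junction complex, -0.16 for mRNA decay enzymes, 0.15 for stalled-ribosome genes and 0.98 for NMD-sensitive transcripts. With upper quartile scaling the medians were -0.026, 0.068, 0.126, 0.088, 0.395 and 1.29 in that order. The authors' deposited log2 ratio gave -0.026, 0.069, 0.128 and 0.091 for the first 4 of these lists and 1.42 for NMD-sensitive transcripts. For the latter, a pseudocount of 0.1 CPM gave 1.47 and one of 5 CPM 1.06. These shifts follow from the scaling or pseudocount itself. At 1.5-fold, 3 of 14 other NMD factors, 3 of 18 mRNA decay enzymes, 3 of 12 stalled-ribosome genes and 19 of 23 NMD-sensitive transcripts were higher, beside 17.4% of all genes. Among these 19 are UPP1, GADD45B, MAP3K14 and ERN1, which passed the filter only through the CB-5083 library and so had to differ. They also enter the medians of that list wherever they pass the filter. With the filter on the DMSO library, 10 of 19 were at least 2-fold higher, beside 6.18% of genes. Wilson and exact bounds of the partner ratios differed by far less than the width of the intervals. With 350.0 to 8300 estimated counts per factor, depth left differences of about the width of the printed intervals undetectable.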

Other observations

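By distance over log2(CPM + 1) in the 2 libraries, the 3 genes nearest to UPF3B, the factor with the largest ratio, were MIOS at 42.1 and 54.0 CPM, MYO1C at 41.5 and 52.4 CPM and FAM103A1 at 41.2 and 54.3 CPM. Nearest to UPF1 were PIGU at 27.2 and 25.8 CPM, SRCAP at 27.9 and 25.7 CPM and KLHL18 at 27.9 and 25.6 CPM. Such neighbours are common with 2 libraries: 43 genes lay within 0.1 of UPF3B and 37 within 0.1 of UPF1.

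Of the 7 rows described as SMG1 copies, those with the highest levels were LOC440354 at 44.6 and 52.3 CPM, LOC100271836 at 24.7 and 31.9 CPM and LOC641298 at 14.9 and 20.4 CPM. Their log2 ratios of 0.22, 0.36 and 0.44 lie around that of the SMG1 row. LOC23117, at 4.29 against 1.84 CPM, and LOC729513, at 1.37 against 0.279 CPM, went the other way.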
